A study of Homo sapiens with 24 samples.

Results

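When MRC5 fibroblasts were exposed to hydrogen peroxide, some RNAs lay on large polysomes and others carried few or no ribosomes, and the difference between these ends of the sucrose gradient was measured for mRNAs and long noncoding RNAs. MRC5 is an established line of human lung fibroblasts. The comparison used 6 of the 24 arrays of the series, namely 3 arrays of the high pool and 3 of the untranslated pool, all from cells under oxidative stress (OS, 0.2 mM H2O2 for 2 h) that received cycloheximide before harvest. The high pool joined gradient fractions 15 to 23, where RNAs carry 5 or more ribosomes, and the untranslated pool joined fractions 1 to 9, which hold free ribonucleoproteins and single 80S ribosomes. The same 2 pools of control cells, which had the same cycloheximide step and no peroxide, served for comparison with another 6 arrays. The arrays were assigned by their labels of condition and pool, and no measured value entered that assignment. The study describes 3 runs of the procedure with an independent RNA preparation each, and its account of the arrays does not state whether these came from separate cultures. The p-values thus measure the spread between preparations, estimated over all 8 groups of the 24 arrays and not over the 6 compared arrays alone. That estimate includes the third low-pool array of stressed cells, which had 95.4% of mRNA probes above background. Replicates 1 and 2 of that group had 64.6% and 63.0%. Leaving it out raised the number of calls, as given below. The study removed replicates that did not cluster with the others, without naming them. Each pool came from many cells, so that a large change in few cells and a small change in all cells cannot be told apart.

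Polysome profiling sorts RNAs by how many ribosomes they carry, because each added ribosome makes the particle sediment deeper. The number of ribosomes on an mRNA depends on how often translation starts on it and on the length of its reading frame, so a short reading frame that is translated well can still hold few ribosomes. Peroxide and other stresses are known to reduce initiation, through phosphorylation of eIF2α and through lower mTOR activity, and mRNAs that begin with a terminal oligopyrimidine (TOP) tract depend most on mTOR. Long noncoding RNAs (lncRNAs) lack a long reading frame, yet many are found in the cytoplasm and a part of them sediments with ribosomes.

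The values are log2 signals of single-colour arrays after quantile normalization, which was done separately for the custom lncRNA probes and for the catalog probes to mRNAs. A difference is the mean of the high arrays minus the mean of the untranslated arrays, and an RNA was called when limma's Benjamini-Hochberg adjusted p was under 0.05. Equal amounts of RNA from each pool were labelled, so a difference tells how an RNA was placed relative to the other RNAs and not how much of it each pool held. On the 3 high arrays 59.3% to 62.3% of the mRNA probes and 22.6% to 26.4% of the lncRNA probes were well above background, against 47.5% to 49.8% and 17.9% to 19.5% on the untranslated arrays. In total RNA of the stressed cells all 4 fibroblast markers on the array (COL1A1, COL3A1, LUM and THY1) were well above background on the 3 arrays. Of the markers of other cells, 3 of 5 epithelial genes (KRT8, KRT18 and SFTPC), 1 of 4 endothelial genes (CDH5) and, by only 1 of its probes, the leukocyte gene PTPRC also were. Their part in the results was not tested.

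Among the 10189 mRNA probes that could be tested, 4151 (40.7%) were higher and 2867 (28.1%) were lower in the high pool than in the untranslated pool upon OS. Among the 9425 lncRNA probes that could be tested, 2526 (26.8%) were higher and 2238 (23.7%) were lower. Without the third low-pool array of stressed cells in normalization and fit, 4805 mRNA probes were higher and 3275 lower. The lncRNA counts were then 3387 higher and 3220 lower. The catalog probes stood for 8655 named genes, of which 3516 (40.6%) were higher and 2469 (28.5%) were lower, and these shares are the background for every group of genes below. All 3 high values lay above all 3 untranslated values for 47.8% of the genes, and all 3 lay below them for 33.6%. The share of higher calls depended on the scaling: it was 59.1% of the called mRNA probes here, 75.6% when all probes were normalized together, 86.0% after scaling each array to its 75th percentile and 95.8% without normalization. For lncRNA probes the share was 53.02% here, 31.9% with joint normalization and 81.0% with none. The median gene had a difference of 0.34, which became 0.99, 1.59 and 2.74 under the same 3 alternatives and 0.25 after normexp background correction, which with the main setting made 5 scalings. For this reason the median of a group of genes is given below relative to the median gene, whereas the difference of a single gene is given as measured. With the 1121 genes seen in 1 pool alone set to their bound, the median gene was at 0.12 and the relative medians moved by at most 0.22, with a change of sign for the initiation factors alone (0.17).

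Most tested mRNAs of ribosomal proteins and all tested hosts of small nucleolar RNAs were lower in the high pool, while most mRNAs of glycolysis, protein folding and the cytoskeleton were higher. Because TOP mRNAs are defined by their first bases, the first 20 bases at the RefSeq start of 10 genes are shown (GRCh38.p14, 5′ to 3′), with the leading run of a C and at least 4 more pyrimidines in capitals where there is one. They are ribosomal protein genes, other TOP genes and a snoRNA host from the groups that stayed out of the high pool or left it, one ribosomal protein gene without the run, and ENO1 and TUBA1A from groups on the other side.
RPL39: CCCTCCTCTTCCTTTCTCCg
RPS9: CTCTTTCTCagtgaccgggt
RPS3: CCTTTCCTTTCagcggagcg
EEF1A1: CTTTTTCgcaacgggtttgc
EEF2: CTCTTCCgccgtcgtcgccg
RACK1: CTCTCTTTCactgcaaggcg
ZFAS1: CTTTCgcgtctgcggtgccc
RPS29: tggcagcggtggttgtttct
ENO1: agtatctgtgggtacccgga
TUBA1A: gcaggttctcttacatcgac
The stretches lie at chrX:119791611-119791630, minus strand, for RPL39, at chr19:54200858-54200877, plus strand, for RPS9, at chr6:73521013-73521032, minus strand, for EEF1A1, and at chr20:49278642-49278661, plus strand, for ZFAS1. RPS29, ENO1 and TUBA1A show no such run at the listed start, and a start listed a few bases away from the one used in these cells would hide it.

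Ribosomal protein mRNAs, which code for the parts of the ribosome itself, were lower in the high pool. Of 47 cytosolic ribosomal protein genes tested, 40 were lower in the high pool, none was higher, and 7 were not called, against 28.5% lower among all genes. Their median lay 1.51 below the median gene on the log2 scale, and all 47 were below it. RPL39, a small protein of the large subunit, had log2 signals of 14.11, 13.98 and 14.12 on the high arrays and 17.29, 17.34 and 17.29 on the untranslated arrays. The groups were far apart and the replicates were close, and limma gave a difference of −3.24 ± 0.10 (SE) with an adjusted p of 5.04e-14. RPL23A had the lowest difference of the group at −3.88. RPL3, a long protein of the large subunit and one of the 7 that were not called, had 17.45, 17.49 and 17.27 in the high pool and 17.30, 17.21 and 17.27 in the untranslated pool, and these values overlapped. Its difference of 0.14 was not called (adjusted p = 0.247, limma). The relative median of the group was between −3.64 and −1.44 over the 5 scalings, with at most 1 gene above the median gene. Ribosomal protein genes have many close pseudogene copies, so it is uncertain whether each probe read its own gene alone.

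The hosts of small nucleolar RNAs (snoRNAs), which carry snoRNAs in their introns and mostly have no long reading frame, were lower without exception. All 12 tested hosts were called lower, all 3 high values of each lay below all 3 untranslated values, and the median was 3.33 below the median gene (−3.43 to −3.05 over the 5 scalings). ZFAS1 had log2 signals of 12.04, 12.05 and 12.02 in the high pool and 15.79, 15.87 and 15.90 in the untranslated pool, a 14.1-fold difference. GAS5, a growth-arrest transcript, had 13.75, 13.68 and 13.90 against 16.74, 16.81 and 16.82. SNHG6 had the lowest difference of the group at −4.38 ± 0.13 (SE). The probes of ZFAS1, GAS5 and SNHG6 share their sequence with another transcript on the array, so the signal may come from more than one of them.

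The start run was also counted over all genes. A run of C and at least 4 more pyrimidines at the listed start was found on the transcribed strand in 1404 of 27305 genes with a RefSeq promoter (5.14%), in 47 of 63 ribosomal protein genes (74.6%), in 10 of 11 genes of the group of elongation factors and other TOP mRNAs (90.9%) and in 6 of 18 snoRNA hosts (33.3%). Of 441 tested genes with the run, 149 were lower and 155 higher, and their median difference was 0.09. Of 5622 tested genes without it, 1345 were lower and 2569 higher, with a median of 0.53. Leaving out the 3 groups, the genes with the run had 118 lower, 154 higher and a median of 0.23. Among ribosomal protein genes the 28 with the run had a median of −1.44, with 25 lower, and the 10 without it a median of −0.59, with 7 lower. These counts describe the listed starts and carry no test.

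**Figure D1:**
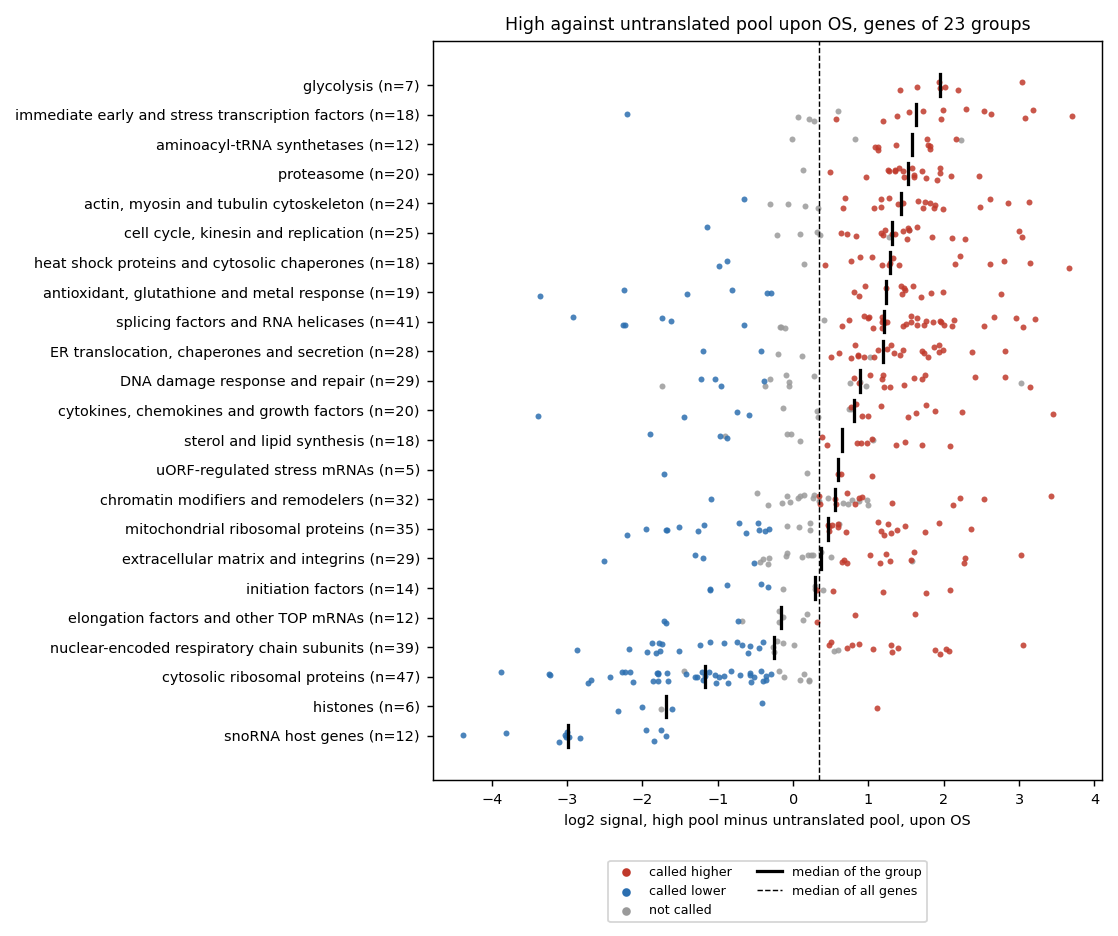
Each point is a gene, placed by its log2 signal in the high pool minus the untranslated pool upon OS (mean of 3 arrays each), in groups ordered by their median (black bar), with the median of all genes as a dashed line at 0.34. Red and blue points were called higher and lower by limma and grey points were not called, and snoRNA hosts, histones and ribosomal proteins lie on the left while glycolysis and immediate early genes lie on the right.

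The coding genes with the highest differences had diverse functions. MAGED2, a member of the MAGE family, had log2 signals of 15.54, 15.16 and 15.41 on the high arrays and 11.50, 11.42 and 11.71 on the untranslated arrays, so that the pools were separated by 14.2-fold. A second MAGED2 probe gave a difference of 2.63, also called. RRAGA, a Rag GTPase through which amino acids act on mTORC1, had 16.64, 16.44 and 16.56 against 12.74, 12.63 and 13.002. IER5, an immediate early gene, had 17.13, 16.52 and 16.73 against 13.09, 13.09 and 13.10. For all 3 genes the lowest high value was above the highest untranslated value by a wide margin, and the differences were 3.83 ± 0.17 (SE), 3.76 ± 0.17 (SE) and 3.70 ± 0.16 (SE). The probes lie at chrX:54838042-54838604, chr9:19050839-19050898 and chr1:181059835-181059894 in the GRCh37 positions given with the array, and the first span is longer than a probe.

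The other 9 genes at this end had differences from 3.14 to 3.43. They were OAT, the mitochondrial ornithine aminotransferase (3.43), TMBIM6, an ER membrane protein that opposes cell death (3.40), the tetraspanins CD81 (3.36) and CD9 (3.27), the kinase VRK1 (3.23) and the gasdermin GSDME (3.21). The last 3 act on RNA or proteins, namely HNRNPA2B1 (3.20), the exon junction helicase EIF4A3 (3.15) and the HSP40 chaperone DNAJA1 (3.14). A second HNRNPA2B1 probe gave −1.10 and was not called (adjusted p = 0.165, limma), so the 2 probes of this gene did not report the same difference. Of 1059 genes with several tested probes, 80 had probes called in opposite directions.

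The coding genes with the lowest loading were mostly known from other tissues, and the 11 probes described here were all well above background on all 3 arrays of total RNA. CIMAP1D, a relative of sperm tail proteins, had log2 signals of 7.80, 8.07 and 7.30 in the high pool and 14.08, 14.47 and 13.97 in the untranslated pool, 87.4-fold apart. Its probe lies at chr19:463367-463426 in GRCh37. C20orf141, which is poorly characterized, had 9.81, 9.41 and 9.30 against 14.52, 15.02 and 14.88. The 3 high values of both genes lay far below the 3 untranslated values, with differences of −6.45 ± 0.59 (SE) and −5.30 ± 0.21 (SE). The keratin-associated KRTAP19-2 (−4.80), uroguanylin GUCA2B (−4.71), the co-stimulatory receptor CD86 (−4.60) and YPEL4 (−4.59) followed. Choline acetyltransferase CHAT (−4.28), PPP1R16B (−4.27) and the protease PRSS36 (−4.20) came next. ITGAE, an integrin of intraepithelial lymphocytes, was at −4.04 and LSM10, a subunit of the U7 particle that processes histone mRNAs, at −4.03. Without normalization CHAT was at −1.96 and was not called (adjusted p = 0.0885, limma). The mean of total RNA was close to the high-pool mean for some, with 6.39 against 5.95 for KRTAP19-2 and 7.00 against 6.73 for PRSS36. It lay further from it for others, with 10.85 against 7.72 for CIMAP1D and 12.28 against 9.91 for LSM10. Whether each probe read its own gene alone was not tested.

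**Figure D2:**
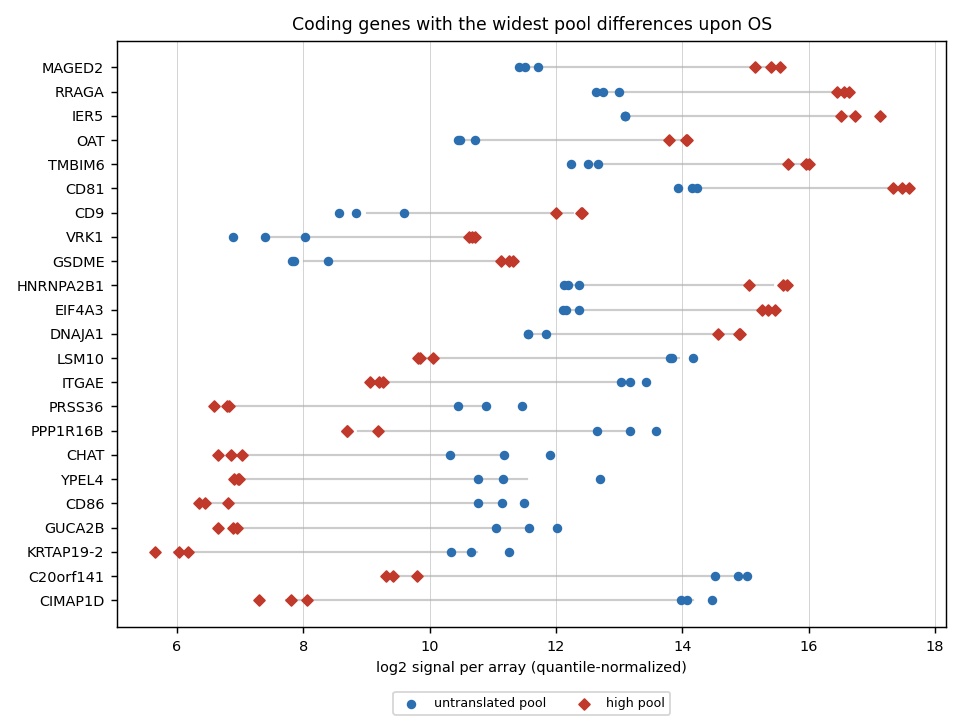
Log2 signal of 12 coding genes with the highest and 11 with the lowest differences, with the 3 arrays of the high pool as red diamonds and the 3 of the untranslated pool as blue circles, and a grey line joining the 2 means. No gene has overlapping pools, since the choice of genes required it. MAGED2 lies between 15.16 and 15.54 in the high pool and between 11.42 and 11.71 in the untranslated pool.

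A further set of probes was well above background on all 3 arrays of one pool and on none of the other, so that the other pool gives only a bound. There the fold is a lower limit, taken against the lowest signal that counted as well above background on each array or the probe's own signal where that was higher. KLHL28, POLR3F and PDPK1 were at least 8.67-fold, 8.49-fold and 7.25-fold higher in the high pool. POLR3F is a subunit of RNA polymerase III and PDPK1 the kinase that activates AKT. SPEF2, a sperm flagellar protein, and, by 1 of its probes, LAMA4, a laminin chain, were at least 18.6-fold and 11.1-fold lower in the high pool.

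Glycolysis, proteasome and tRNA synthetase genes were mostly higher in the high pool. All 7 tested glycolysis genes were higher in the high pool, with a median 1.61 above the median gene. ENO1, enolase, had log2 signals of 17.44, 17.24 and 17.40 in the high pool and 14.30, 14.12 and 14.55 in the untranslated pool, and the difference was 3.04 ± 0.19 (SE). PFKP, a phosphofructokinase, was at 2.19. Of 20 proteasome genes 19 were higher and none was lower, with a relative median of 1.18, and PSMC2 and PSMD2 of the regulatory particle led with 2.47 and 2.10. Of 12 aminoacyl-tRNA synthetases and their partners 9 were higher and none was lower (relative median 1.24), with AIMP2 at 2.16 and AARS1 at 1.81.

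Chaperones and the cytoskeleton were placed alike. Of 18 heat shock proteins and cytosolic chaperones 15 were higher and 2 lower, with a relative median of 0.94. CCT5, a subunit of the chaperonin that folds actin and tubulin, had log2 signals of 8.38, 8.27 and 8.17 in the high pool and 3.004, 5.78 and 5.06 in the untranslated pool. No untranslated array was well above background for it, so it was at least 3.45-fold higher, while HSP90AA1 was at 2.80 and HSP90AB1 at 1.40. The 2 that were lower were the co-chaperone BAG1 (−0.88) and the small heat shock protein CRYAB (−0.99). Of 24 genes of actin, myosin and tubulin 19 were higher and 1 was lower, with TUBA1A at 3.13 and TUBB4B at 2.86, although the relative median of 1.09 was as low as 0.14 over the 5 scalings. Of 28 genes of ER translocation, folding and secretion 23 were higher and 2 lower. SRP54 of the signal recognition particle was at 2.82, whereas SRP9 of the same particle was at −1.20 and was called lower.

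RNA processing and cell division genes were also mostly high. Of 41 splicing factors and RNA helicases 31 were higher and 6 lower (relative median 0.86). SRSF2, a serine-arginine-rich factor, had 14.64, 15.01 and 14.89 against 11.81, 11.65 and 11.94, and TRA2B, another splicing regulator, had 9.75, 9.73 and 9.46 against 12.64, 12.73 and 12.33, so that these 2 were on opposite sides with differences of 3.05 and −2.92. SNRPD2, a core spliceosome protein, was at −2.26. Of 25 cell cycle, kinesin and replication genes 18 were higher and 1 was lower (relative median 0.98). Thymidine kinase TK1 was at 3.04 and RRM2 of ribonucleotide reductase at 2.99, while CENPA, the histone of the centromere, was the one that was lower, at −1.15.

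Antioxidant and DNA damage genes were split. Of 19 antioxidant, glutathione and metal response genes 13 were higher and 6 lower, with a relative median of 0.90. PRDX3, the mitochondrial peroxiredoxin, was at 2.75, glutathione synthetase GSS at 1.98 and superoxide dismutase SOD1 at 1.23. MT1X, a metallothionein that binds metal ions, had log2 signals of 9.26, 9.26 and 9.07 in the high pool and 12.52, 12.68 and 12.46 in the untranslated pool. Its difference of −3.36 was the lowest of the group, followed by MT1E at −2.24, and glutathione peroxidase GPX1 was at −0.81. Of 29 DNA damage response and repair genes 14 were higher and 4 lower (relative median 0.54). XRCC6, the Ku70 subunit of end joining, was at 2.81. The cell cycle inhibitor CDKN1A (−0.96) and the death protein BAX (−1.04) were called lower and the ubiquitin ligase MDM2, at −0.09, was not called.

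The mitochondrial groups lay between these ends. Of 39 nuclear-encoded respiratory chain subunits 14 were higher and 18 lower, with a relative median of −0.60. ATP5F1B, the catalytic subunit of ATP synthase, had 16.32, 16.02 and 16.16 against 12.97, 13.12 and 13.27, and ATP5MF, a small subunit of the same enzyme, had 12.60, 12.72 and 12.98 against 15.67, 15.68 and 15.57. These 2 subunits of one enzyme had differences of 3.05 and −2.87 and showed no overlap between pools. The complex I subunit NDUFS1 was at 2.07 and UQCR10 of complex III at −2.19. Of 35 mitochondrial ribosomal proteins 17 were higher and 13 lower, from MRPL19 at 2.36 to MRPS33 at −2.20, and their relative median of 0.13 turned to −0.03 with joint normalization.

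Histones were low, and the remaining groups were close to the median gene. Of 6 tested histone genes 4 were lower and 1 was higher (relative median −2.02), and the linker histone H1-4 had the lowest difference at −2.32. Replication-dependent histone mRNAs lack a poly(A) tail, and the labelling primed on poly(A). Of 29 extracellular matrix and integrin genes 12 were higher and 4 lower, with a relative median of 0.03 whose sign depended on the processing. Among them COL1A1, the main collagen of fibroblasts, was at 1.28, TIMP1 at 2.28 and tenascin TNC at −1.30. Of 20 cytokines, chemokines and growth factors 11 were higher and 4 lower, with CXCL5 at least 1.63-fold higher and CCN2 at 2.25 on one side and FGF1 at −3.39 on the other. Of 18 sterol and lipid synthesis genes 10 were higher and 3 lower, from FDPS at 2.08 to the regulator SREBF1 at −1.90. Of 32 chromatin modifiers 13 were higher and only KMT2B was lower (−1.08), with the demethylase KDM6B at least 2.24-fold higher.

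Initiation factors themselves were split, with 5 of 14 higher and 5 lower and a relative median of −0.05 that changed sign with the processing. EIF3B (2.08), EIF2B2 (1.76) and the scaffold EIF4G1 (1.19) were higher. The cap-binding protein EIF4E had log2 signals of 8.82, 8.89 and 9.14 in the high pool and 10.21, 10.03 and 9.93 in the untranslated pool. It was lower by all 3 arrays, with a difference of −1.11 ± 0.20 (SE), and its repressor EIF4EBP2 was at −1.10.

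Whether these positions belonged to the stressed cells was asked by testing the same pool difference in control cells and the change between the conditions, here called the shift (OS difference minus control difference). Most calls were shared. Of the mRNA probes called higher upon OS 82.8% were also higher in control cells, and of those called lower 90.0% were also lower. Pearson's r of the 2 differences over the 10189 probes was 0.90, a description across probes that share their arrays within each condition. Only 45 mRNA probes were higher upon OS and lower in control cells, and 37 were the reverse. The shift was called toward the high pool for 727 genes (8.40%) and away from it for 749 genes (8.65%). These numbers depend on the scaling, since after scaling to the 75th percentile 8 and 6 genes were called, and of the genes in the groups below EGR3 alone was among them. They also depend on single arrays, with 1471 genes toward and 1320 away when the third low-pool array of stressed cells was left out, and 442 toward without the first control high array.

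Most immediate early and stress transcription factors moved toward the high pool. Of 18 tested genes 13 were higher in the high pool upon OS and 1 was lower, with a relative median of 1.30 against 0.01 in control cells, and 11 had a shift toward the high pool while none had one away from it. ATF3, a stress-induced transcription factor, had log2 signals of 17.06, 17.37 and 17.13 in the high pool and 14.80, 14.40 and 14.46 in the untranslated pool upon OS. In control cells it had 11.28, 11.16 and 11.28 in the high pool and 11.72, 11.59 and 10.83 in the untranslated pool. All 6 arrays of stressed cells were thus above all 6 of control cells, the pools overlapped only in control cells, and the shift was 2.78 ± 0.32 (SE) (adjusted p = 3.13e-05, limma).

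EGR1, an immediate early zinc finger factor, and ZFP36, a protein that destabilizes mRNAs with AU-rich elements, had differences of opposite sign in the 2 conditions. EGR1 had 15.87, 15.79 and 15.90 in the high pool and 14.34, 14.31 and 14.29 in the untranslated pool upon OS, against 14.33, 13.64 and 13.19 (high) and 14.92, 14.87 and 14.18 (untranslated) in control cells. ZFP36 had 14.38, 13.65 and 14.36 (high) and 12.31, 12.43 and 12.45 (untranslated) upon OS, against 12.30, 12.02 and 11.81 (high) and 12.72, 12.86 and 12.78 (untranslated) in control cells. For both genes the untranslated values lay below the high values upon OS, and in control cells the EGR1 pools overlapped and the ZFP36 high values lay below the untranslated ones. The shifts were 2.47 ± 0.43 (SE) and 2.47 ± 0.26 (SE). Relative to the median gene, the shift was between 1.37 and 2.76 over the 5 scalings for ATF3, between 2.20 and 2.48 for EGR1 and between 0.46 and 1.02 for IER5. JUNB (3.08 upon OS, 2.19 in control cells) and IER5 (3.70 and 2.76) were high in both conditions and shifted by 0.88 and 0.94. EGR3, which had 6.69, 6.87 and 6.81 in the high pool, was not well above background on any untranslated array upon OS and was at least 1.23-fold higher there. CEBPD was the one gene of the group called lower, at −2.20 upon OS and −1.97 in control cells. With the third low-pool array of stressed cells left out, which stood apart with 93.3% of lncRNA and 95.4% of mRNA probes above background, 12 of the 18 genes shifted toward the high pool.

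ATF4, whose upstream reading frames are known to let its translation rise when eIF2 is phosphorylated, was tested with other mRNAs controlled by such frames (uORFs). Its log2 signals were 17.37, 17.03 and 17.42 in the high pool and 17.10, 17.11 and 17.07 in the untranslated pool upon OS, and 15.63, 15.52 and 15.58 (high) and 17.22, 17.06 and 17.05 (untranslated) in control cells. The untranslated values were alike in both conditions, the 3 high values were above all 3 high values of control cells, and the 2 OS pools overlapped. The OS difference of 0.18 was not called (adjusted p = 0.182), the control difference was −1.53, and the shift was 1.71 ± 0.16 (SE) with an adjusted p of 5.76e-06 in limma. Over the 5 scalings the ATF4 shift relative to the median gene was between 1.07 and 1.70. Of the other 4 tested genes of the group, SLC35A4 (−1.72, shift 0.72) also shifted toward the high pool, while PPP1R15B (1.05) and IBTK (0.64) were called higher with shifts of 0.06 and −0.08 that were not called.

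TOP mRNAs moved the other way. Of 12 elongation factors and other TOP mRNAs 3 were higher and 3 lower upon OS, with a relative median of −0.50 against 0.45 in control cells, and 8 shifted away from the high pool while none shifted toward it. RACK1, a protein of the small ribosomal subunit with the start run shown above, had 16.74, 16.78 and 16.23 in the high pool and 16.37, 16.42 and 16.41 in the untranslated pool upon OS, against 17.37, 17.23 and 17.17 (high) and 15.60, 15.71 and 16.0003 (untranslated) in control cells. The OS pools overlapped and the control pools did not, and the shift was −1.31 ± 0.20 (SE). EEF1D had a difference of −0.19 upon OS and 1.31 in control cells, and EEF1A1, the factor that brings tRNAs to the ribosome, had −0.13 and 0.61, both with a shift that was called. EEF2, the translocation factor, had −0.68 and 0.64, and its shift of −1.32 was not called (adjusted p = 0.159, limma).

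Ribosomal proteins were low in both conditions, and a part of them moved further down upon OS. Of 47 genes 16 shifted away from the high pool and none toward it, and the relative median was −1.51 upon OS against −1.13 in control cells. RPS9 had 14.22, 14.78 and 14.31 in the high pool and 15.52, 15.64 and 15.67 in the untranslated pool upon OS, against 15.42, 15.11 and 15.38 (high) and 15.01, 14.97 and 15.09 (untranslated) in control cells. Its high values all lay below the untranslated values upon OS and all above them in control cells, and the shift was −1.45 ± 0.18 (SE). RPL39 shifted by −0.50 and RPL3 by −0.99. The median shift of the group, relative to the median gene, was between −0.48 and −0.31 over the 5 scalings, and between −0.95 and −0.70 for the elongation factors and other TOP mRNAs.

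Some respiratory chain and mitochondrial ribosomal protein mRNAs shifted toward the high pool. Of 39 respiratory chain genes 15 shifted toward it and only ATP5F1B away from it, with a relative median of −0.60 upon OS against −0.93 in control cells. Of 35 mitochondrial ribosomal proteins 9 shifted toward it and 1 away. ATP5MF moved from −3.52 to −2.87, UQCR10 from −2.86 to −2.19 and MRPL42 from −2.72 to −1.96. Among antioxidant genes SOD1 moved from 0.35 to 1.23 and GPX1 from −1.81 to −0.81, both toward the high pool, and GSS moved from 2.98 to 1.98, away from it. EIF4E, low in both conditions, moved from −2.46 to −1.11, and CXCL2 from −3.38 to −1.45. The CXCL2 shift relative to the median gene was only 0.32 after normexp correction and up to 2.29 over the 5 scalings.

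Among matrix and lipid synthesis mRNAs most called shifts went away from the high pool. Of 29 matrix and integrin genes 8 shifted away and only LAMA4 toward it, from −3.29 to −2.51, and of 18 sterol and lipid synthesis genes 9 shifted away and none toward it. Another LAMA4 probe, well above background on no high array of stressed cells, had a shift of 0.15 that was not called. COL3A1, a fibrillar collagen, had 10.17, 9.63 and 10.15 in the high pool and 10.23, 10.59 and 10.13 in the untranslated pool upon OS, against 9.65, 9.43 and 9.30 (high) and 8.54, 8.17 and 7.63 (untranslated) in control cells. The pools overlapped upon OS and were fully apart in control cells, and the shift was −1.68 ± 0.39 (SE). COL1A1 moved from 2.04 to 1.28, TNC from −0.41 to −1.30, the cholesterol enzyme DHCR7 from 2.83 to 1.71 and fatty acid synthase FASN from −0.35 to −0.98. HSP90AB1, a constitutive chaperone, fell from 2.74 to 1.40, and PSMD2 from 2.73 to 2.10. Shifts away also outnumbered shifts toward in other groups, with 7 and 2 of 28 ER and secretion genes. The counts were 6 and 2 for 18 chaperones, 6 and 2 for 24 cytoskeleton genes and 6 and 1 for 32 chromatin modifiers. They were 5 and 0 for 20 proteasome genes and 5 and 0 for 25 cell cycle genes. Splicing factors (4 away, 5 toward) and DNA damage genes (3 and 3) differed from this.

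**Figure D3:**
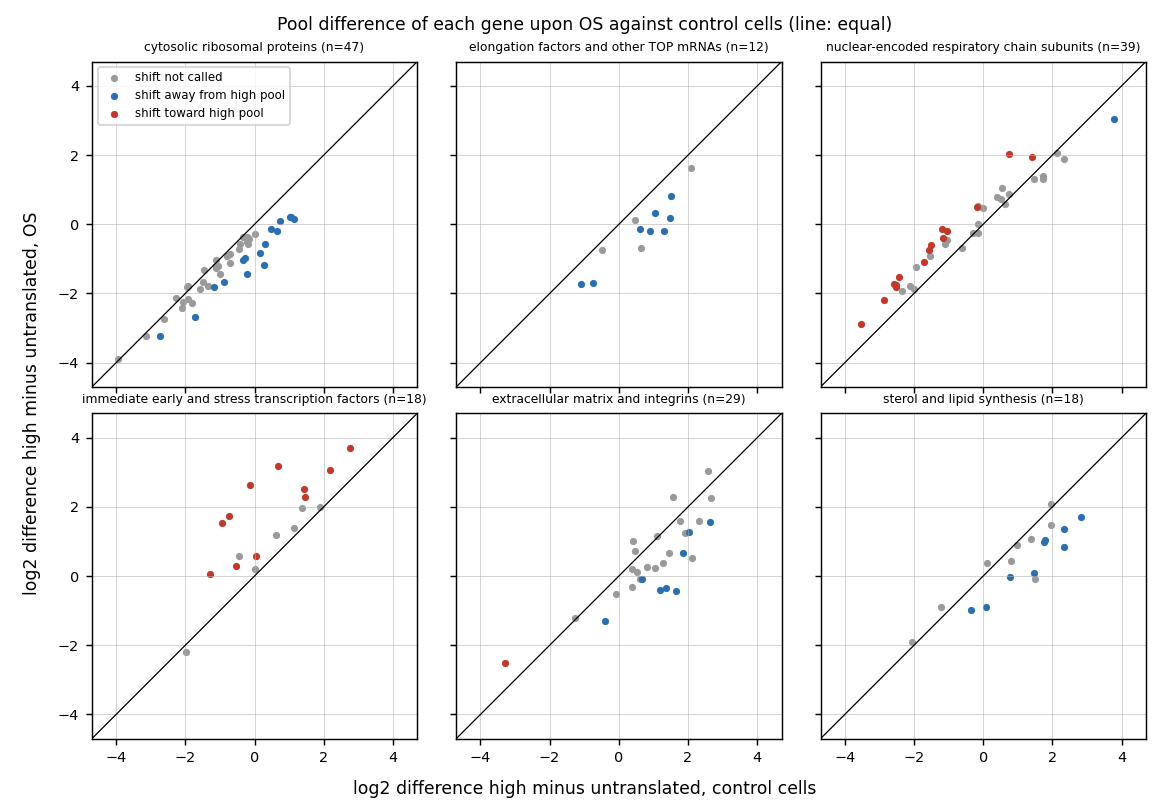
Each point is a gene of 1 of 6 groups, with its log2 difference (high minus untranslated pool) in control cells on the horizontal axis and upon OS on the vertical axis, and the line marks equal values. Red points shifted toward the high pool upon OS, blue points away from it and grey points were not called, so that immediate early and respiratory chain genes lie mostly above the line and TOP mRNAs, ribosomal proteins, matrix and lipid synthesis genes mostly below it.

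Noncoding RNAs as a whole were less loaded than mRNAs. Since separate normalization centres each kind of probe by itself, this was asked with all probes normalized together. The median of the lncRNA probes minus the median of the mRNA probes was −2.31, −2.26 and −2.35 on the high arrays and −0.95, −0.97 and −1.08 on the untranslated arrays. The means were −2.31 ± 0.05 (SD, n = 3) and −0.9997 ± 0.07 (SD, n = 3) and the groups did not overlap, with a difference of −1.31 between pools and a two-sided exact permutation p of 0.1, the smallest that 3 against 3 arrays allow. After separate normalization the same quantity was 0.00270, since that step removes it. With joint normalization the median difference was 1.21 for 8397 catalog probes with a coding accession, −0.33 for those with noncoding accessions only and −0.56 for the 9425 custom lncRNA probes. Above 0 lay 77.1%, 41.5% and 37.2% of them.

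**Figure D4:**
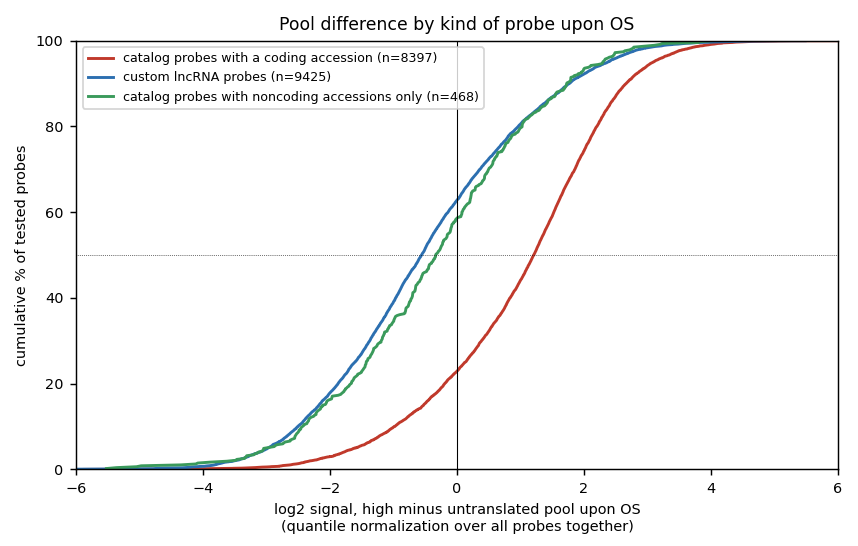
Cumulative share of tested probes (vertical axis, %) by their log2 signal in the high pool minus that in the untranslated pool under OS after joint normalization (horizontal axis), for coding catalog probes, noncoding catalog probes and custom lncRNA probes. The curve of the coding probes lies to the right, with a median of 1.21, and the curves of both noncoding kinds lie to the left, with medians of −0.33 and −0.56.

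Many lncRNA probes were nevertheless far into the high pool. The custom probes name GENCODE transcripts and give no position, so these transcripts are known here by their identifier. ENST00000581915.1 had log2 signals of 11.37, 11.41 and 11.42 in the high pool and 6.87, 6.89 and 7.27 in the untranslated pool. ENST00000415663.1 had 16.64, 16.85 and 16.60 against 12.56, 12.50 and 12.60. Pools without overlap were a condition of the choice, and the differences were 4.39 ± 0.59 (SE) and 4.14 ± 0.17 (SE). The next 4 were ENST00000595265.1 (4.11), ENST00000582262.1 (4.09), ENST00000455236.1 (3.96) and ENST00000534918.1 (3.95). All 6 were also high in control cells, at 3.61 to 5.17, and only ENST00000595265.1 shifted, by −1.06.

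At the other end ENST00000450016.1 had 7.26, 7.34 and 7.19 in the high pool and 12.16, 12.66 and 12.38 in the untranslated pool, and ENST00000443162.1 had 7.44, 7.44 and 7.48 against 12.24, 12.78 and 12.50. These pools were 35.2-fold and 33.1-fold apart. ENST00000381796.1 was at −4.93. ENST00000531002.1 and ENST00000556291.1 were the pair whose shift was called, with differences of −4.29 and −4.28 upon OS against −1.39 and −1.48 in control cells. The shifts were −2.90 ± 0.67 (SE) and −2.80 ± 0.77 (SE), and lncRNA shifts were not tested under the other scalings. ENST00000580972.1 reached 17.90 on all 3 untranslated arrays, a value that quantile normalization sets by rank, and its difference was −4.03.

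The lncRNA calls held from probe to probe. Of 2701 lncRNA transcripts with 2 tested probes of unshared sequence, both probes were called higher for 701 and both lower for 501, none had opposite calls, and 2487 had differences of the same sign. Pearson's r of the 2 probes was 0.94 across transcripts. Of the lncRNA probes called higher upon OS 81.8% were also higher in control cells, and of those called lower 78.8% were also lower. Only 8 were higher upon OS and lower in control cells, and 3 were the reverse. Among probes seen in one pool alone, ENST00000566446.1, ENST00000525548.1 and ENST00000433465.1 were at least 11.8-fold, 11.5-fold and 10.5-fold higher in the high pool. ENST00000575126.1, ENST00000517965.1 and ENST00000411804.1 were at least 39.1-fold, 29.5-fold and 19.8-fold lower.

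Catalog genes with only noncoding accessions were mostly in the untranslated pool, with 213 of 405 lower and 55 higher. RNU2-1, the U2 RNA of the spliceosome, had log2 signals of 9.16, 9.15 and 9.32 in the high pool and 15.65, 15.55 and 14.25 in the untranslated pool, and its difference of −5.94 was −7.60 in control cells. The array lists this probe at chr11:62609103-62609162 (GRCh37), and U2 RNA has several near-identical genes, so it is uncertain which copy was read. SCARNA16, a guide RNA of Cajal bodies, had 6.30, 6.22 and 6.69 against 11.91, 12.003 and 11.94. RMRP, the RNA of the RNase MRP enzyme, was at −4.64 and the pseudogene RPL29P2 at −3.98. All 4 had no overlap between pools, which their choice required. Nuclear function is known for the first 3, and the untranslated pool holds every free ribonucleoprotein of the lysate. SNORA28, a snoRNA, and FAM167A-AS1 were seen in the untranslated pool alone and were at least 7.54-fold and 4.04-fold lower in the high pool. Because the labelling primed on poly(A), it is uncertain which form of RNU2-1, SCARNA16, RMRP and SNORA28 gave the signal.

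Among noncoding catalog genes above background on all 6 arrays, the 4 with the highest differences were pseudogenes. DNAJA1P5 had 12.04, 12.04 and 11.58 in the high pool and 9.23, 9.43 and 9.27 in the untranslated pool. Its difference of 2.58 stood beside 3.14 for DNAJA1, the coding gene it derives from. ANXA2P1 (2.33), POTEKP (2.08) and TPI1P2 (1.85) derive from or resemble ANXA2, actin and TPI1. Such copies are close to identical with their coding genes, so it is uncertain which of them gave the signal. FLJ43315, LOC283070 and DNM1P46 were seen in the high pool alone, at least 4.75-fold, 2.67-fold and 2.21-fold higher. Of the nuclear-retained lncRNAs 2 were tested, TUG1, which was higher at 1.22, and MEG3, which was lower at −1.56.

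**Figure D5:**
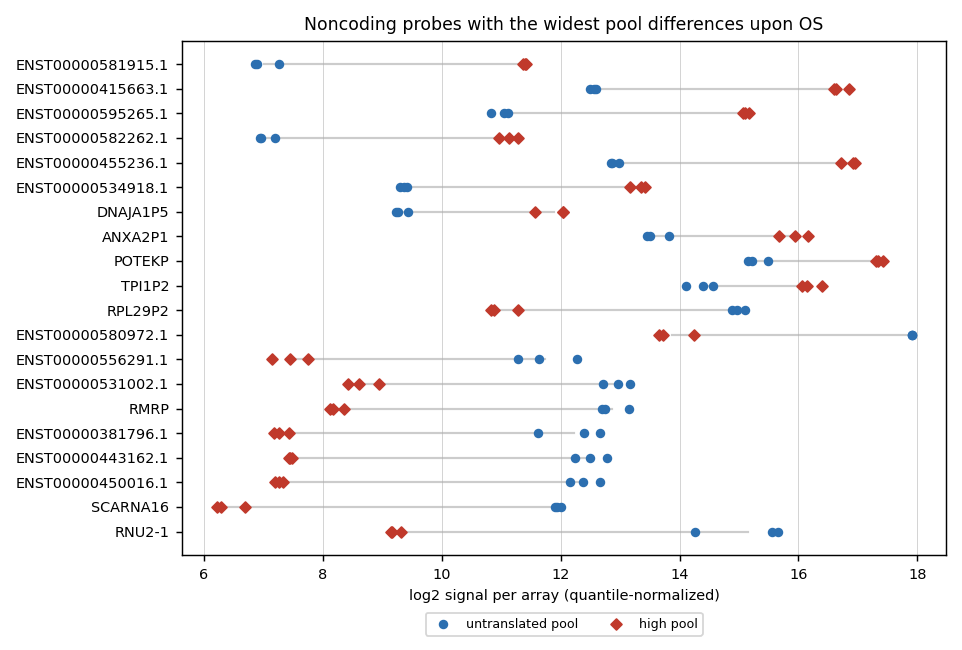
Log2 signal of the 8 catalog noncoding genes and 12 custom lncRNA transcripts with the widest differences, with the 3 high arrays as red diamonds, the 3 untranslated arrays as blue circles and a grey line joining the 2 means. No pools overlap, since the choice required it. ENST00000580972.1 sits at 17.90 on all 3 untranslated arrays, a value that quantile normalization sets by rank.

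Total RNA and the low pool of stressed cells were set beside the 2 pools. Of 4151 mRNA probes called higher, the mean of total RNA lay between the 2 pools for 3542, and the mean of replicates 1 and 2 of the low pool (2 to 4 ribosomes) lay between them for 2996. Of 2867 probes called lower, the counts were 2250 and 1643. For lncRNA probes called higher they were 2173 and 2051 of 2526, and for those called lower 1382 and 887 of 2238. The rest had total RNA or low-pool signals outside the range of the 2 pools.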

How the data were processed

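Single-colour arrays of a custom design with 43911 lncRNA and 17448 catalog mRNA probes were read for 24 samples in 8 groups of 3. The authors deposited scanner intensity values, extracted with Agilent Feature Extraction 10.7.3.1, with local background subtracted; per the labels, Partek was used downstream. The deposited series table, log2 values by its range, served only as an alternative. From the intensities, log2 processed signals were quantile-normalized over 24 arrays, lncRNA and mRNA probes separately, after leaving out 178 probes with an outlier mark (0 spots were saturated). Probes well above background on all 3 arrays of at least 1 of the 2 pools were tested with limma 3.58.1 in R 4.3.3, 8 group means, Benjamini-Hochberg over all tested probes; the shift also took probes above background in a control pool. A gene was represented by its brightest probe, and probes that match several genes were left out. Scripts were tested on simulated data.

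Named genes were the 12 highest and lowest coding, 4 and 4 noncoding catalog and 6 and 6 custom lncRNA differences with separated pools, unshared probe sequence and background passed on all 6 arrays, the 3 largest bounds, the extremes of each gene list and genes that define it. A few of these genes are not reported here. RPS3 and RPS29 were added after their values were seen. Members and lists were chosen with earlier results of these data known. Start sequences come from RefSeq promoters (GRCh38.p14); probe positions are GRCh37. Alternatives were other scalings, background correction, filters, the deposited table, a replicate block and leaving out arrays. The number of arrays limits the precision. Slide and replicate number coincide for these 6 arrays.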

Additional observations from a re-analysis of the deposited data

Results flagged for a closer look

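Of 136 genes and probes named or listed in the report whose shift was tested, 47 had a pool difference that was not the same in stressed and control cells by limma's test of the change, with 21 moving toward the high pool upon OS and 26 moving away. Toward the high pool the shifts on the log2 scale were 2.78 for ATF3, 2.52 for EGR3, 2.47 for ZFP36, 2.47 for EGR1, 0.94 for IER5 and 0.88 for JUNB, all immediate early or stress genes. EGR3 was below background on all untranslated arrays of stressed cells, so the size of its shift has no firm base. Also toward it moved ATF4 by 1.71, CXCL2 by 1.93, EIF4E by 1.35, SLC35A4 by 0.72, SRP9 by 0.78, CDKN1A by 0.78 and, by its brightest probe, LAMA4 by 0.78. Among antioxidant, mitochondrial, histone and noncoding members the shifts were 0.996 for GPX1, 0.88 for SOD1, 0.72 for MT1E, 0.77 for MRPL42, 0.67 for UQCR10, 0.65 for ATP5MF, 1.05 for H1-4 and 1.66 for RNU2-1.

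Away from the high pool moved ribosomal and other translation genes, with −0.50 for RPL39, −0.99 for RPL3, −1.45 for RPS9, −0.74 for EEF1A1, −1.50 for EEF1D, −1.31 for RACK1, −0.93 for EIF3F, −0.62 for EIF4B, −0.68 for HNRNPA1 and −0.94 for AARS1. Matrix and lipid genes had −1.68 for COL3A1, −0.76 for COL1A1, −0.89 for TNC, −1.12 for DHCR7 and −0.62 for FASN. Further shifts were −1.34 for HSP90AB1, −0.64 for PSMD2, −0.999 for GSS and −0.73 for ATP5F1B. C20orf141 had −2.27 and KRTAP19-2 −2.20, the pseudogenes POTEKP and ANXA2P1 −1.16 and −0.79, and the lncRNAs ENST00000531002.1, ENST00000556291.1 and ENST00000595265.1 −2.90, −2.80 and −1.06. Under scaling to the 75th percentile EGR3 was the one gene of the gene groups that was called again. For C20orf141, KRTAP19-2, the pseudogenes and the lncRNAs the call under that scaling was not looked up.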

How the results depend on the processing

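With all probes normalized together 1815 mRNA and 3795 lncRNA probes were called lower, and 1810 and 3796 were in the deposited table. Scaling to the 75th percentile called 6234 mRNA probes higher and 1013 lower and gave shifts for 8 genes toward and 6 away. With no normalization 8449 and 370 mRNA probes and 4636 and 1084 lncRNA probes were called higher and lower, and 284 genes shifted toward the high pool. Requiring background to be passed on all 6 arrays left 1220 lncRNA probes called higher. With only the 6 compared arrays in the fit, 3269 lncRNA probes were called higher and 3111 lower. With no filter 303 genes shifted toward and 438 away, and with the third low-pool array of stressed cells left out 1471 and 1320, alternatives for the shift that were chosen after seeing the data. The lncRNA minus mRNA difference was −1.86 with 75th percentile scaling and with no normalization, −0.99 with normexp, −0.74 with no filter, −1.61 with the stricter filter and 0.00270 with separate normalization.

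Among gene groups, the matrix median relative to the median gene reversed to −0.054 with joint normalization, −0.058 with 75th percentile scaling and with none, −0.059 in the deposited table, and ranged from −0.13 to 0.29 without single arrays, with −0.13 and −0.04 without the first high and the first untranslated array. The mitochondrial ribosomal protein median became −0.035 and −0.028 with joint normalization and in the deposited table, and that of initiation factors 0.025 with normexp, 0.34 with no filter and 0.17 with the stricter one. Of 432 group values 347 stayed within the replicate spread, and of 748 values of single probes 747 kept their call and direction, the exception being CHAT with no normalization. These single probes were only the named extremes, chosen as called with separated pools and wide differences. Their stability was thus largely set by the choice and does not describe called probes in general.

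Leaving out single arrays of the high or untranslated pool upon OS gave 3721 to 3936 mRNA probes higher and 2640 to 2773 lower. LncRNA probes numbered 2234 to 2335 higher and 1899 to 1986 lower, and the lncRNA minus mRNA difference was −1.34 to −1.28. Without single arrays of these pools in either condition, 442 to 802 shifts went toward the high pool and 555 to 749 away. There were 442 toward without the first control high array and 484 without the second or the third OS high array. Without the third low-pool array of stressed cells the counts left these ranges. They were 4805 and 3275 mRNA probes, 3387 and 3220 lncRNA probes, and shifts of 1471 and 1320. The replicate number as a block gave 4158 and 2880 mRNA probes, 2557 and 2318 lncRNA probes, and shifts of 715 and 741. The slide as a block gave 4151 and 2913, 2584 and 2387, and 741 and 750, and within a slide each pool has 1 array, so no test was possible there. Deviations of same-numbered arrays correlated by 0.09, −0.03 and 0.30, values that do not settle whether equal numbers mark 1 gradient. The planned classes of protein length were not run, since no protein lengths were in the reference used here. Signal over background limits the rest.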
